A study of Mus musculus with 12 samples.

Results

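Bone matrix and mineralization genes are described here across 4 groups of cultured marrow cells. The 10 genes, of 54532 in the deposited table, are Spp1, Ibsp, Bglap, Bglap2, Alpl, Phex, Sparc, Postn, Omd and Tmem119. They were chosen by their roles in osteoblasts, with the FPKM and fold changes of these same libraries already known, so every test result given for them is a description and supports no claim about the choice.

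The study deposited RNA-seq of marrow mesenchymal stem cells from mice labelled C57BL/6 (C57BL6/J in the methods) and aged 4 weeks, cultured to passage 3 and sampled 5 days after induction. Its question was how loss of the chromatin remodeler Chd7 alters bone and fat differentiation. The WT Osteo and WT Adipo groups came from Chd7 fl/fl mice without Cre, and the KO Osteo and KO Adipo groups from Prx1-cre;Chd7 fl/fl mice, in which Cre removes exon 2 of Chd7 in limb mesenchyme and its progeny, so cells of other origin in the flushed marrow keep the gene. Each group had 3 libraries, 12 in all. Osteo groups received ascorbic acid at 50 µM, β-glycerophosphate at 10 mM and dexamethasone at 10 nM. Adipo groups received insulin at 10 µg/ml, isobutylmethylxanthine at 0.5 µM as the labels give it, and dexamethasone at 1 µM. The media therefore differ in every one of these agents, whose effects cannot be told apart. Whether equal replicate numbers mark the same mouse or dish is not stated, nor whether the replicates of a group are separate animals, so a p measures only the spread between these samples.

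Osteoblasts build bone by secreting a scaffold of type I collagen, studding it with acidic and calcium-binding proteins, and then letting hydroxyapatite form on it. Mineral grows where phosphate is freed and pyrophosphate, its inhibitor, is removed. Matrix proteins with integrin-binding sites also tie cells to the tissue, and several of them are made by other cells as well: osteopontin, the product of Spp1, is abundant in macrophages and osteoclasts.

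Values are FPKM, fragments scaled by gene length and library size, as the authors deposited them. Depth ran from 17496241 to 21099077 fragments on genes. With the scaling of the deposited values, 3 fragments make 0.143 to 0.185 FPKM for a gene 1 kilobase long. Fold changes were taken from log2(FPKM + 1), so for weakly expressed genes they are too small, and a call means an adjusted p under 0.05 in limma, fitted to the 12871 genes with at least 1 FPKM in at least 3 libraries. Of the 10 genes, 9 met that minimum. Bglap met it through the 3 KO Adipo libraries alone and so had to be higher there, which is why no count over the 9 stands as evidence. Phex, below the minimum in all 12 libraries, has exact permutation tests, which are two-sided and cannot give a p under 0.1 with 3 libraries against 3. Fragment ratios carry 95% exact binomial confidence intervals on fragments summed over the 3 libraries of a group. These cover counting error only and leave out the spread between libraries. Copies made in amplification were not marked, so even the counting error may be understated.

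Chd7 (chromosome 4, 8690406 to 8867659 on GRCm38) was at 2.64, 2.67 and 2.77 FPKM in WT Osteo and 2.03, 2.35 and 2.28 in KO Osteo, in the order of replicates 1, 2 and 3, which is used throughout. It was at 2.26, 1.81 and 2.23 FPKM in WT Adipo and 2.03, 2.35 and 2.48 in KO Adipo. All KO libraries lay below all WT libraries in osteogenic medium, while the adipogenic groups overlapped. The log2 fold change of KO against WT was -0.20 in osteogenic medium (standard error 0.0787, limma adjusted p = 0.160) and 0.09 in adipogenic medium (limma adjusted p = 0.428), or 0.02 (limma adjusted p = 0.870) without replicate 2 of WT Adipo. With equal FPKM sums in all libraries it was 0.22 in adipogenic medium (limma adjusted p = 0.0470), that is, higher in KO. The osteogenic value was called lower in KO with replicate 2 of WT Adipo and replicate 1 of KO Adipo both left out (limma adjusted p = 0.0242). It was not called without the former alone (limma adjusted p = 0.0534). Reads on exon 2 could not be counted from a value per gene, and the groups are called by their labels.

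Fkbp5, a gene induced by glucocorticoids and named here after its values were seen, was at 30.6, 32.6 and 31.3 FPKM in WT Osteo but 3.91, 5.46 and 3.69 in WT Adipo, although the adipogenic medium is labelled with the higher dose of dexamethasone. In the KO libraries the order was the opposite, with 6.90, 6.29 and 6.19 FPKM in Osteo and 29.9, 42.8 and 41.9 in Adipo. WT Osteo and KO Adipo were thus high, WT Adipo and KO Osteo low, with no overlap. Whether this bears on the group labels was not tested.

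Replicate 2 of WT Adipo stood apart. Over the tested genes its mean Pearson r was 0.941 with the other WT Adipo libraries, 0.981 with WT Osteo and 0.983 with KO Osteo, a correlation across genes that are not independent. Replicates 1 and 3 had mean r of 0.964 and 0.966 within WT Adipo, pulled down by the comparison with replicate 2, and libraries of the osteogenic groups had 0.989 to 0.991 within their groups. Replicate 1 of KO Adipo was slightly apart, at 0.981 against 0.986 for replicates 2 and 3. Where leaving out replicate 2 of WT Adipo moved an adipogenic result of the 10 genes across the threshold or by more than 1.5 times, both values are given.

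Markers of other cells differed between the libraries as well. The macrophage list had 16 of 16 genes above the minimum, with Lyz2 the most abundant, and summed to 15097, 15593 and 15563 FPKM in WT Osteo, 17009, 16628 and 16539 in KO Osteo, 20059, 10381 and 19929 in WT Adipo and 9955, 8435 and 8638 in KO Adipo. Replicate 2 of WT Adipo lay near the KO Adipo libraries and far below replicates 1 and 3. Lyz2 alone had means of 9182, 11113, 11249 and 4280 FPKM in WT Osteo, KO Osteo, WT Adipo and KO Adipo. These sums largely follow it. The median log2 fold change of the 16 genes, KO against WT, was -0.14 in Osteo, opposite to the sum, and -0.56 in Adipo. Adgre1, which encodes the macrophage antigen F4/80, was at 1171, 227 and 1136 FPKM in WT Adipo and at 255, 130 and 127 in KO Adipo. The list was not uniform. By group means Mrc1, Cd163, C1qa, C1qb and C1qc were higher in KO Adipo than in WT Adipo, and the remaining genes lower. C1qa, for example, went from 442 to 698 FPKM and Mrc1 from 59.8 to 91.3. In KO against WT, Adipo, 3 macrophage genes were called higher and 9 lower, and without replicate 2 of WT Adipo 6 and 10. Of all genes 16.7% and 16.5% were called so, and 24.4% and 26.8% without that library. For KO Osteo 1 was called higher and 3 lower, and 2 and 5 without that library, beside 4.94% and 4.15% of all genes, and 11.5% and 10.8%. The mesenchymal stromal list, of which 6 of 8 genes met the minimum and Itgb1 was the most abundant, summed to 409, 403 and 404 FPKM in WT Osteo, 461, 468 and 482 in KO Osteo, 453, 455 and 449 in WT Adipo, and 526, 565 and 559 in KO Adipo, a sum that is mostly Itgb1. Of the 6, 3 were called higher in KO Osteo, and 4 higher and 1 lower in KO Adipo, among them Pdgfrb (0.82, limma adjusted p = 0.000126) and Cxcl12 (-0.39, limma adjusted p = 0.00932). Thy1 and Lepr, which define such cells, did not meet the minimum and reached at most 1.03 and 1.13 FPKM. Bulk RNA cannot tell fewer cells of a type from less RNA per cell, and the part of these shifts in the results that follow was not tested.

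**Figure D1:**
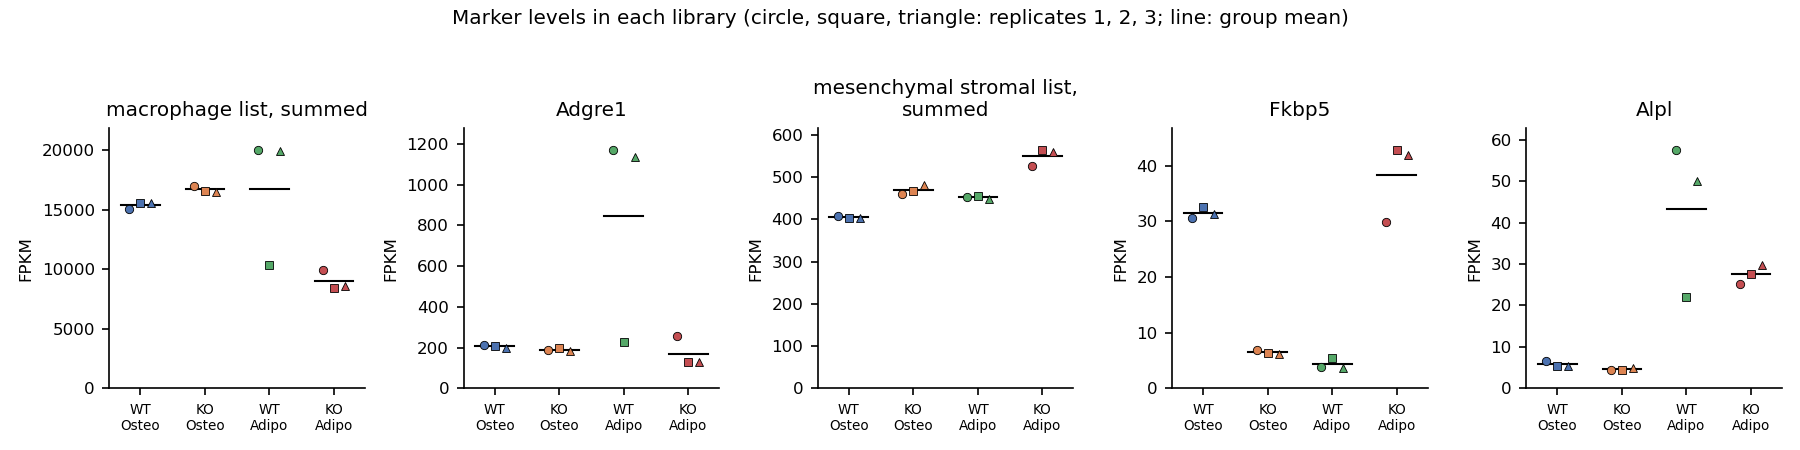
FPKM in each library of the summed macrophage list, Adgre1, the summed mesenchymal stromal list, Fkbp5 and Alpl, with circle, square and triangle for replicates 1, 2 and 3 and a line for the mean of 3 libraries. Replicate 2 of WT Adipo, the square, sits far below replicates 1 and 3 for the macrophage list, Adgre1 (227 against 1171 and 1136 FPKM) and Alpl (22.0 against 57.5 and 50.1 FPKM).

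The osteoclast list had 4 of 8 genes above the minimum, most abundantly Ctsk, and its sums were 75.5 to 78.6 FPKM in WT Osteo, 105 to 107 in KO Osteo, 78.0 to 78.6 in WT Adipo and 67.6 to 73.1 in KO Adipo. Calcr, which defines osteoclasts, reached at most 0.0283 FPKM. In the osteoclast list no gene was called in KO against WT, Osteo, with all libraries (4.94% of all genes called higher and 4.15% lower). There 2 genes were called higher without replicate 2 of WT Adipo (11.5% of all genes, with 10.8% lower). In Adipo 1 was called lower (16.5% of all genes), and without that library 1 higher and 2 lower (24.4% and 26.8%). The adipocyte list had 3 of 7 genes above the minimum, with Cebpa the most abundant and sums of 146 to 152, 127 to 135, 57.5 to 103 and 99.2 to 140 FPKM in WT Osteo, KO Osteo, WT Adipo and KO Adipo, while Adipoq, Plin1, Cidec and Lep reached at most 0.600, 0.0951, 0.0656 and 0.0316 FPKM. Fabp4 was the adipocyte gene called, lower in KO Osteo and higher in KO Adipo, where 3 were higher without replicate 2 of WT Adipo.

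Endothelial genes (4 of 7 above the minimum, most abundantly Cdh5, with sums of 2.68 to 2.93, 7.92 to 8.74, 3.74 to 4.66 and 6.60 to 8.45 FPKM in the same order of groups) were called higher 3 times in KO Osteo and 2 times in KO Adipo. Chondrocyte genes (3 of 6, Col2a1, at most 9.05 FPKM in sum) gave 1 and 3 such calls, and smooth muscle genes (4 of 4, Acta2, from 738 FPKM in WT Osteo to 1549 in KO Adipo) 2 and 3. Among the latter Myh11 met the minimum through the KO Adipo libraries alone and so had to be higher there. Emcn, an endothelial gene called in both media, met it through KO libraries alone and so had to be higher in KO. Its means were 0.432, 1.99, 0.647 and 1.60 FPKM in WT Osteo, KO Osteo, WT Adipo and KO Adipo. None of these 3 lists had a gene called lower in KO in either medium with all libraries, while without replicate 2 of WT Adipo 3 endothelial genes were higher and 1 lower in KO Adipo. Of 5 osteoblast transcription factors, all above the minimum and Atf4 the most abundant (sums 66.3 to 96.3 FPKM), 1 was called higher and 2 lower in KO Osteo, and 3 higher in KO Adipo. Runx2, which commits cells to the osteoblast lineage, was at a mean of 3.67, 2.78, 3.04 and 3.92 FPKM in WT Osteo, KO Osteo, WT Adipo and KO Adipo. Of 5 genes defining osteoblasts (Runx2, Sp7, Alpl, Ibsp and Bglap, a list that holds 3 of the 10 genes described), 1 was called lower in KO Osteo and 3 higher in KO Adipo, or 4 higher and 1 lower there without replicate 2 of WT Adipo. Bglap, 1 of those higher, had to be so by the minimum. Beside the counts of all these lists stand 4.94% of all genes called higher and 4.15% lower in KO Osteo, 16.7% and 16.5% in KO Adipo, and 24.4% and 26.8% there without replicate 2 of WT Adipo.

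Spp1 encodes osteopontin, an acidic phosphoprotein that binds integrins and mineral (ENSMUSG00000029304, chromosome 5, 104435118 to 104441050). It was the most abundant of the 10 genes per length, at 1375, 1261 and 1500 FPKM in WT Osteo, 2099, 2075 and 2218 in KO Osteo, 840, 869 and 870 in WT Adipo and 1204, 1060 and 1235 in KO Adipo. The order from high to low was KO Osteo, WT Osteo, KO Adipo and WT Adipo, and no neighbours in that order overlapped. KO exceeded WT by 0.63 on the log2 scale in osteogenic medium (standard error 0.0757, limma adjusted p = 0.000950) and by 0.44 in adipogenic medium (limma adjusted p = 0.00194). The difference between these, the interaction, was -0.19 (limma adjusted p = 0.227) and turned to 0.0036 with equal FPKM sums in all libraries. Adipogenic medium was lower than osteogenic medium by every library in both genotypes, with log2 fold changes of -0.68 in WT and -0.87 in KO (limma adjusted p = 0.000527 and 3.56e-05). The macrophage sum had another order, with 2 WT Adipo libraries at the top, while the osteoclast sum was highest in KO Osteo, at a mean of 106 FPKM. Atp6v0d2 of the osteoclast list had the order of Spp1, with means of 57.0, 36.2, 25.4 and 13.7 FPKM in KO Osteo, WT Osteo, KO Adipo and WT Adipo (2.11, 36.2 and 2.61 in the WT Adipo libraries). It was the largest part of that sum in KO Osteo, so the sum and this gene are not separate observations. With all libraries it was not called in KO against WT, Osteo. Acp5, Ctsk and Mmp9, the other osteoclast genes tested, had other orders. By group means Acp5 was highest in WT Adipo (23.8 FPKM), Ctsk lowest in WT Osteo (36.9) and Mmp9 lowest in KO Adipo (0.299). The part of these cells in Spp1 was not tested. A predicted gene, Gm42793, overlaps Spp1 by 1252 bases on the same strand and reached at most 4.68 FPKM.

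Ibsp encodes bone sialoprotein, a phosphoprotein that nucleates hydroxyapatite (ENSMUSG00000029306, chromosome 5, 104299171 to 104311469). Its FPKM were 1.44, 0.690 and 1.89 in WT Osteo, 0.888, 1.07 and 0.956 in KO Osteo, 0.441, 0.462 and 0.537 in WT Adipo and 1.88, 2.64 and 3.21 in KO Adipo. WT Adipo was lowest, apart from every other library, and KO Adipo highest, though its replicate 1 lay just under replicate 3 of WT Osteo. From WT to KO in adipogenic medium the mean rose 5.36-fold, with 302 against 53 fragments, rates that stand at 5.39 to 1 (95% confidence interval 4.01 to 7.36). The log2 fold change there was 1.26 (standard error 0.187, limma adjusted p = 0.000810), against -0.21 in osteogenic medium (limma adjusted p = 0.561). The interaction was 1.47 (standard error 0.264, limma adjusted p = 0.00405). Between media Ibsp went in opposite directions, -0.63 in WT (limma adjusted p = 0.0379) and 0.84 in KO (limma adjusted p = 0.00781). The call in WT was lost in 8 of 12 fits that each left out a library, among them replicates 1 and 3 of WT Osteo and of WT Adipo, with adjusted p up to 0.12, and was also lost with only the libraries compared, without a minimum on FPKM, with the replicate number as a block and in voom (limma adjusted p = 0.128, 0.0863, 0.0530 and 0.0513).

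Bglap and Bglap2 encode osteocalcin, a vitamin K-dependent protein of mature osteoblasts that binds hydroxyapatite, and lie side by side on chromosome 3 (ENSMUSG00000074483, 88383501 to 88384464, and ENSMUSG00000074486, 88377736 to 88378699). Bglap was at 0, 0.193 and 0.0916 FPKM in WT Osteo, 0.180, 0.268 and 0.267 in KO Osteo, 0.295, 0.850 and 0.699 in WT Adipo and 1.72, 1.46 and 1.28 in KO Adipo. These values rest on 3, 8, 21 and 52 fragments per group, with the osteogenic groups overlapping at the bottom and KO Adipo above all other libraries. In adipogenic medium the ratio of rates of KO to WT was 2.34 (95% confidence interval 1.39 to 4.09) and KO exceeded WT by 0.63 on the log2 scale (standard error 0.141, limma adjusted p = 0.00724). That call was lost with a pseudocount of 0.1 (limma adjusted p = 0.0708) and with only the 6 libraries compared in the fit (limma adjusted p = 0.0569). In osteogenic medium the ratio was 2.59 with an interval from 0.621 to 15.1, so no difference was detectable at this depth. The interaction of 0.45 was not called (limma adjusted p = 0.135), was called without replicate 2 of WT Adipo (0.56, limma adjusted p = 0.0422), and turned to -0.03 in voom on recovered fragments. Between media in WT Bglap rose by 0.55 (limma adjusted p = 0.0219), a call lost without replicate 1 or 3 of WT Osteo or replicate 3 of WT Adipo (limma adjusted p = 0.0768, 0.0598 and 0.0792) and with only the 6 libraries compared (limma adjusted p = 0.117).

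Bglap2 was at 3.04, 2.27 and 3.72 FPKM in WT Osteo, 1.89, 1.88 and 1.75 in KO Osteo, 5.04, 4.97 and 3.15 in WT Adipo and 5.31, 7.77 and 6.70 in KO Adipo. KO Osteo lay below all other libraries and KO Adipo above them, while the WT groups overlapped in between. KO against WT was -0.48 in osteogenic medium (limma adjusted p = 0.128) and 0.50 in adipogenic medium (standard error 0.176, limma adjusted p = 0.0504), neither of them called. The osteogenic value was called with only the 6 libraries compared (limma adjusted p = 0.0348), and with replicate 2 of WT Adipo and replicate 1 of KO Adipo both left out (limma adjusted p = 0.0498). The adipogenic value was called with equal FPKM sums (0.66, limma adjusted p = 0.0304). Without replicate 2 of WT Adipo it was 0.59 (limma adjusted p = 0.0278). It was also called without replicate 2 or 3 of WT Osteo and without replicate 1 of KO Adipo (limma adjusted p = 0.0433, 0.0477 and 0.0320). The interaction was 0.99 (limma adjusted p = 0.0206), lost without replicate 2 of KO Adipo (limma adjusted p = 0.0521). Adipogenic against osteogenic medium was 1.41 in KO (limma adjusted p = 0.000342) and 0.42 in WT (limma adjusted p = 0.11), the latter called without replicate 3 of WT Adipo (0.60, limma adjusted p = 0.0457).

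Sequence limits how well these neighbours can be told apart. Their coding sequences are 288 bases each in GENCODE M21, differ at 4 bases and are 98.6% identical, and 192 of 239 stretches of 50 bases in Bglap (80.3%) recur in Bglap2. Bglap3, the other paralog, differs from Bglap at 13 bases, shares 13.4% of its stretches and reached at most 0.0430 FPKM. How reads that match more than 1 gene were assigned is not stated. The first 60 coding bases are shown because 3 of the 4 differences between Bglap and Bglap2 fall in them, and capitals mark those 3 positions in each gene.

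Bglap: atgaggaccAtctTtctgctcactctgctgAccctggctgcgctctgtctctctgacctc

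Bglap2: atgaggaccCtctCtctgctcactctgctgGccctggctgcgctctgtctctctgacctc

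Bglap3: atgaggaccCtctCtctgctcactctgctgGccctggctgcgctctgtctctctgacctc

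Alpl encodes the tissue-nonspecific alkaline phosphatase, which breaks down pyrophosphate and frees phosphate (ENSMUSG00000028766, chromosome 4, 137741733 to 137796384). It was at 6.62, 5.28 and 5.37 FPKM in WT Osteo and 4.50, 4.41 and 4.97 in KO Osteo, and far higher in adipogenic medium, at 57.5, 22.0 and 50.1 in WT Adipo and 25.1, 27.6 and 29.6 in KO Adipo. Every adipogenic library exceeded every osteogenic one, and KO Osteo lay below WT Osteo, but the adipogenic groups overlapped through replicate 2 of WT Adipo alone, the lowest of the 6. From osteogenic to adipogenic medium the log2 fold change was 2.61 in WT (standard error 0.277, limma adjusted p = 0.000409) and 2.34 in KO (limma adjusted p = 0.000250), a 7.51-fold and a 5.94-fold rise in mean FPKM. KO against WT was -0.26 in osteogenic medium (limma adjusted p = 0.646) and -0.53 in adipogenic medium (limma adjusted p = 0.169). The osteogenic value was called with replicate 2 of WT Adipo and replicate 1 of KO Adipo both left out (limma adjusted p = 0.0477), and not without the former alone (limma adjusted p = 0.0679). Without replicate 2 of WT Adipo the adipogenic value was -0.95 (limma adjusted p = 4.24e-05), the KO mean being 0.510 of the WT mean in place of 0.636, and the interaction was -0.69 (limma adjusted p = 0.00276) in place of -0.27 (limma adjusted p = 0.659). Alpl was thus the 1 gene of the 10 whose level in adipogenic medium was lower in KO once that library was left out.

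Phex encodes an endopeptidase of osteoblasts and osteocytes that restrains phosphate wasting (ENSMUSG00000057457, chromosome X, 157162075 to 157415312). It held 30 fragments over all 12 libraries, namely 5 in WT Osteo, 7 in KO Osteo, 6 in WT Adipo and 12 in KO Adipo, and reached at most 0.0531 FPKM. All groups overlapped. The exact permutation p was 0.9 and 0.3 for KO against WT in osteogenic and adipogenic medium, and 0.8 and 0.6 for the media in WT and KO. The ratio of rates of KO to WT in adipogenic medium was 1.89 (95% confidence interval 0.657 to 6.14), so a difference was not detectable at this depth.

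**Figure D2:**
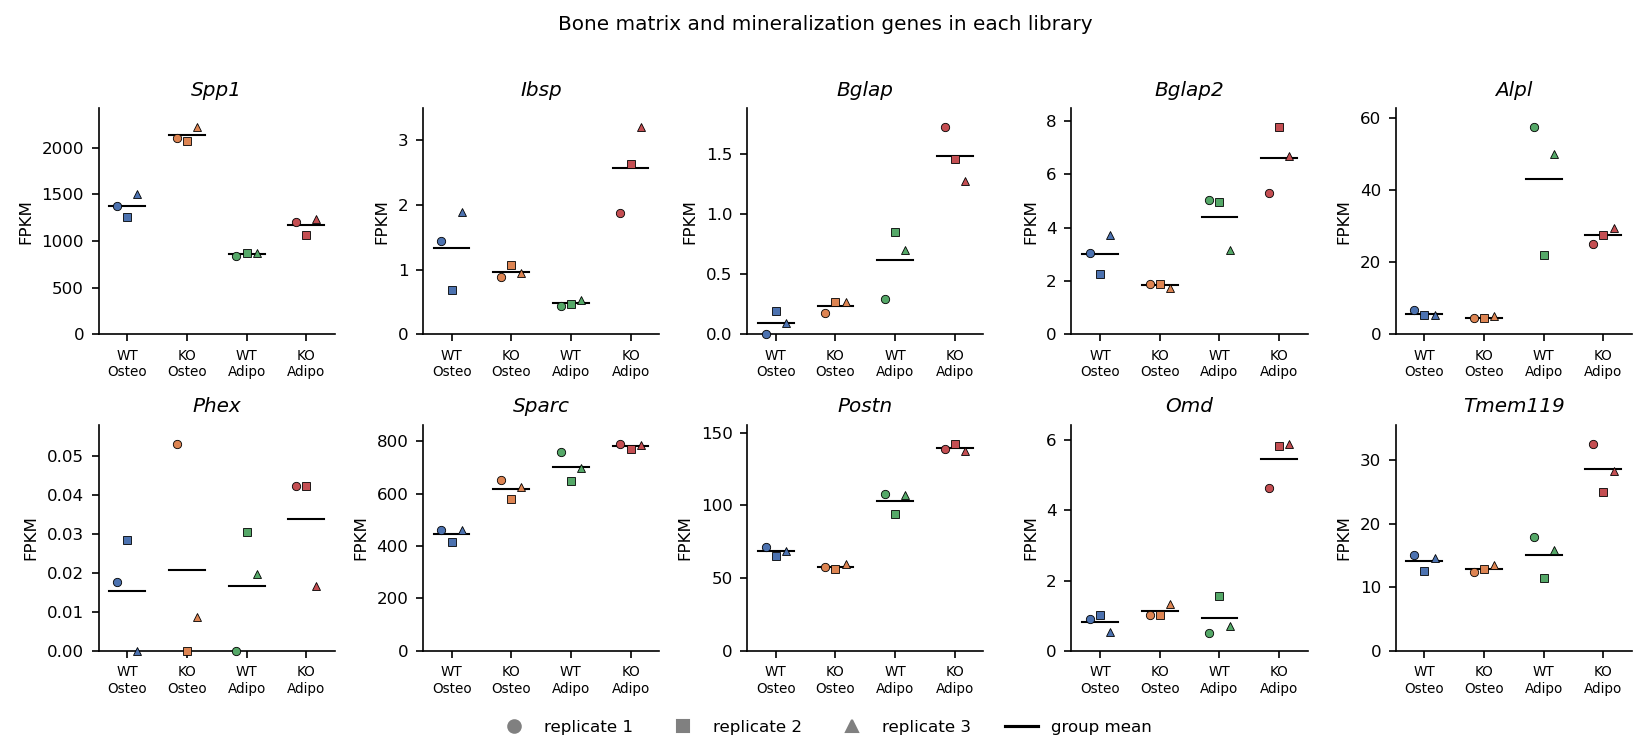
FPKM of the 10 genes in each library, with circle, square and triangle for replicates 1, 2 and 3 and a line for the mean of 3 libraries. KO Adipo held the highest mean for 8 genes, from 0.0337 FPKM for Phex to 783 FPKM for Sparc, while Spp1 peaked in KO Osteo (2131 FPKM) and Alpl in WT Adipo (43.2 FPKM). Of the 8, Phex rests on 12 fragments in KO Adipo with all groups overlapping, and Bglap had to be highest there by the minimum on FPKM. The share of all genes highest in KO Adipo was not counted.

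Sparc encodes osteonectin, a calcium- and collagen-binding glycoprotein (ENSMUSG00000018593, chromosome 11, 55394500 to 55423183). It was at 462, 416 and 462 FPKM in WT Osteo, 652, 579 and 627 in KO Osteo, 758, 650 and 699 in WT Adipo and 791, 771 and 786 in KO Adipo. The libraries of WT Osteo were lowest and those of KO Adipo highest, each group apart from the rest, and KO Osteo overlapped WT Adipo through replicate 2 of the latter. KO against WT was 0.47 in osteogenic medium (standard error 0.0696, limma adjusted p = 0.00282) and 0.16 in adipogenic medium (limma adjusted p = 0.104), or 0.10 (limma adjusted p = 0.204) without replicate 2 of WT Adipo. The adipogenic value became 0.35 (limma adjusted p = 0.0119) with equal FPKM sums in all libraries, a scaling that raised the median of all genes in that comparison from -0.01 to 0.14. The interaction of -0.31 was called (limma adjusted p = 0.0491), but the call was lost in 10 of 12 fits that left out a library, all except those without replicate 2 of KO Osteo or replicate 2 of WT Adipo, with adjusted p up to 0.113. Adipogenic medium was higher by 0.65 in WT and 0.34 in KO (limma adjusted p = 0.000418 and 0.00527).

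Postn encodes periostin, an adhesion protein of periosteum and other collagen-rich tissue (ENSMUSG00000027750, chromosome 3, 54361109 to 54391037). Its FPKM were 71.2, 65.6 and 69.0 in WT Osteo, 57.3, 56.3 and 60.1 in KO Osteo, 108, 93.9 and 107 in WT Adipo and 139, 143 and 137 in KO Adipo. No groups overlapped, and the genotypes stood in opposite order in the media. KO against WT was -0.24 in osteogenic medium (standard error 0.0591, limma adjusted p = 0.0326) and 0.44 in adipogenic medium (limma adjusted p = 0.000493), with an interaction of 0.68 (standard error 0.0835, limma adjusted p = 0.000531). The osteogenic call was lost in 7 of 12 fits that each left out a library, namely any of the 6 osteogenic libraries or replicate 3 of KO Adipo, with adjusted p up to 0.116. It was also lost with the replicate number as a block, with equal FPKM sums and without a minimum on FPKM (limma adjusted p = 0.0863, 0.0622 and 0.0609). Between media the change was 0.58 in WT and 1.26 in KO (limma adjusted p = 0.000341 and 8.64e-07).

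Omd encodes osteomodulin, a small leucine-rich keratan sulfate proteoglycan of mineralized tissue (ENSMUSG00000048368, chromosome 13, 49582462 to 49592822). It was at 0.907, 1.01 and 0.528 FPKM in WT Osteo, 1.01, 1.03 and 1.34 in KO Osteo, 0.514, 1.55 and 0.714 in WT Adipo and 4.64, 5.83 and 5.90 in KO Adipo. KO Adipo lay several times above all other libraries, among which WT Adipo overlapped both Osteo groups. KO against WT in adipogenic medium was 1.78 (standard error 0.185, limma adjusted p = 0.000103), with 695 against 118 fragments, rates that stand at 5.57 to 1 (95% confidence interval 4.58 to 6.83). The ratio of means was 5.89, and 8.89 without replicate 2 of WT Adipo, the highest WT library. In osteogenic medium the log2 fold change was 0.24 (limma adjusted p = 0.503) and the interaction 1.54 (standard error 0.262, limma adjusted p = 0.00306). Between media Omd rose by 1.60 in KO (limma adjusted p = 0.000220). In WT the value was 0.06 (limma adjusted p = 0.840), turning to -0.16 without replicate 2 of WT Adipo (limma adjusted p = 0.373) and to -0.06 without replicate 3 of WT Osteo. Omd lies within the body of Cenpp on the opposite strand over 10361 bases, and since the use of strand is not stated, reads of Cenpp, which reached at most 1.31 FPKM, may count toward it.

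Tmem119 encodes a membrane protein that promotes osteoblast differentiation (ENSMUSG00000054675, chromosome 5, 113793729 to 113800516). It was at 15.0, 12.5 and 14.6 FPKM in WT Osteo, 12.5, 12.9 and 13.5 in KO Osteo, 17.9, 11.4 and 15.8 in WT Adipo and 32.6, 25.0 and 28.3 in KO Adipo. Again only KO Adipo was apart, and the other 3 groups overlapped. KO against WT was 0.90 in adipogenic medium (standard error 0.146, limma adjusted p = 0.00135) and -0.11 in osteogenic medium (limma adjusted p = 0.732), with an interaction of 1.01 (standard error 0.206, limma adjusted p = 0.00779). Between media Tmem119 rose by 1.08 in KO (limma adjusted p = 0.000540), against 0.07 in WT (limma adjusted p = 0.749), a value that was 0.25 without replicate 2 of WT Adipo (limma adjusted p = 0.0836) and turned to -0.05 with equal FPKM sums. The value in WT was called with replicate 2 of WT Adipo and replicate 1 of KO Adipo both left out (limma adjusted p = 0.0371).

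The genes fall into several patterns when set side by side. In KO against WT, Osteo, Spp1 and Sparc were called higher, 2 of 9 tested where 4.94% of all genes were called higher, and Postn was called lower, 1 of 9 where 4.15% were. In KO against WT, Adipo, 6 of 9 were called higher (Spp1, Ibsp, Bglap, Postn, Omd and Tmem119) and 0 lower, with 16.7% of all genes called higher and 16.5% lower. Without replicate 2 of WT Adipo these became 7 and 1, with Bglap2 higher and Alpl lower, and the shares of all genes 24.4% and 26.8%. At an unadjusted p under 0.05 in limma none of the 9 was lower with all libraries. The interaction was called positive for 5 of 9, Ibsp, Bglap2, Postn, Omd and Tmem119 (10.9% of all genes), and negative for Sparc (9.58%). Median log2 fold changes over the 9 were -0.11, 0.50 and 0.68 for these 3 comparisons, beside -0.01, -0.01 and -0.003 over all genes tested.

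Between the media, Alpl, Bglap, Sparc and Postn were called higher in adipogenic medium in WT, 4 of 9 where 10.5% of all genes were, and Spp1 and Ibsp lower, 2 of 9 where 12.3% were. In KO, 8 of 9 were called higher in adipogenic medium (13.9% of all genes) and 1, Spp1, lower (14.0%). The medians over the 9 were 0.42 and 1.08, beside 0.006 and 0.004 over all genes. These comparisons share libraries with those of genotype, KO Adipo above all, so they are not separate evidence. Equal FPKM sums in all libraries moved the median of all genes to 0.14, 0.16, -0.10 and 0.06 in KO against WT, Adipo, the interaction, and the media in WT and in KO. Under it Omd, Ibsp, Tmem119 and Postn in KO against WT, Adipo, were at 1.88, 1.35, 1.08 and 0.62, each above that shift.

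**Figure D3:**
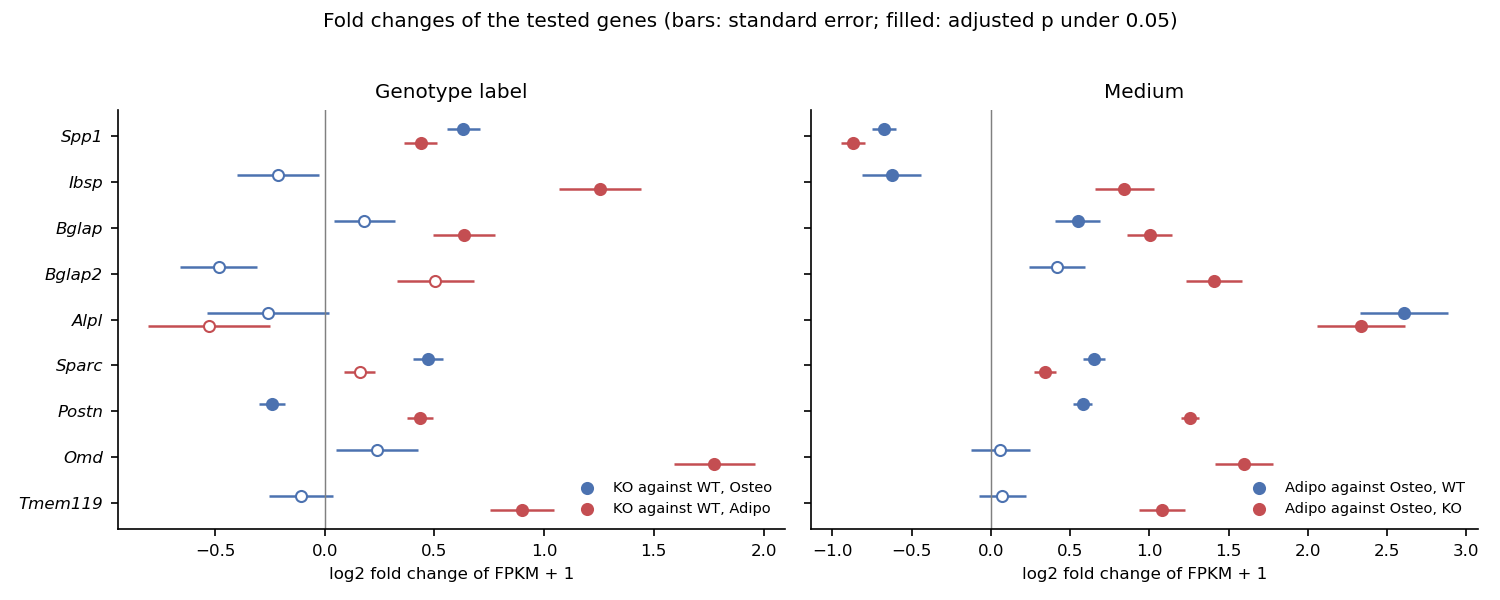
Log2 fold changes of FPKM + 1 for the 9 genes tested, with bars for the standard error (n = 3 libraries per group) and filled points for an adjusted p under 0.05 in limma. KO against WT ranged from -0.48 (Bglap2) to 0.63 (Spp1) in osteogenic and from -0.53 (Alpl) to 1.78 (Omd) in adipogenic medium, and Spp1 was the 1 gene lower in adipogenic medium in both genotypes among those called.

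The genes nearest in pattern were found by the root mean square difference of log2(FPKM + 1), each gene centred on its mean, over the 12 libraries. For Alpl, whose group means span 2.86, the nearest was Ptx3 at 0.524, followed by Slc6a12 and Serping1. For Bglap they were Rnd3 (0.154), Fgfr2 and Plagl1, and for Bglap2 Smad6 (0.200), Postn and Htra3. Spp1 had Prkg2 (0.150), 1700012B09Rik and Gm10382, and Omd had Peg10 (0.158), Ret and Bmp8a. Tmem119 lay nearest Dpep1 (0.139), Smoc2 and Notch3, and Postn nearest Vcan (0.112), Fgd3 and Smad6. Sparc, whose group means span 0.81, was under the span of 1 required for this search.

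Promoter windows of 250 bases before the start are shown for Ibsp, Bglap and Omd, 3 of the genes highest in KO Adipo, and for Spp1, which was highest in KO Osteo. They come from RefSeq on GRCm38.p6, where 8 of the 10 genes had an entry and Bglap2 and Tmem119 had none. Capitals mark matches, on either strand, to TATAAA (the TATA box), CCAAT (the CCAAT box), ACCACA (the core bound by RUNX factors) and AGAACA (a hexamer bound by the glucocorticoid receptor), which 12.4%, 33.8%, 14.0% and 16.1% of 32851 such windows hold. The Ibsp window (chr5:104299037-104299286, plus strand) holds TATAAA on the minus strand from -28 to -23 and CCAAT on the minus strand from -54 to -50. The Bglap window (chr3:88384467-88384716, minus strand) holds TATAAA from -27 to -22, CCAAT from -90 to -86 and ACCACA from -132 to -127. The Omd window (chr13:49582212-49582461, plus strand) holds none of these letters. For Spp1 the first of 2 listed starts is shown (chr5:104434861-104435110, plus strand), with TATAAA from -211 to -206, CCAAT on the minus strand from -46 to -42 and ACCACA from -128 to -123. Among windows not shown, that of Sparc holds AGAACA from -14 to -9 and on the minus strand from -78 to -73, and the second of Alpl holds AGAACA from -170 to -165 and TATAAA from -192 to -187, both on the minus strand. The second of Postn holds TATAAA from -26 to -21, and Phex and the remaining windows hold none of the 4.

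Ibsp: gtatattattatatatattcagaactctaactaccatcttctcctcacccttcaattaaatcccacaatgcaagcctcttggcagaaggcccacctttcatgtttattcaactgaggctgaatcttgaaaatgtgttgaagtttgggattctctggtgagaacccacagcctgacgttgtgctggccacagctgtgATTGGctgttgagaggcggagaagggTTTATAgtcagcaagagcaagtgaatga

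Bglap: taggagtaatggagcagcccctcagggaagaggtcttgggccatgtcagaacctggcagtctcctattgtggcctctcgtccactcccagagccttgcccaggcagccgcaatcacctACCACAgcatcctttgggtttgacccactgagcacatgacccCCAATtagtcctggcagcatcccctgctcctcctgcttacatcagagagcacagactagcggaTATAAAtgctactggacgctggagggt

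Omd: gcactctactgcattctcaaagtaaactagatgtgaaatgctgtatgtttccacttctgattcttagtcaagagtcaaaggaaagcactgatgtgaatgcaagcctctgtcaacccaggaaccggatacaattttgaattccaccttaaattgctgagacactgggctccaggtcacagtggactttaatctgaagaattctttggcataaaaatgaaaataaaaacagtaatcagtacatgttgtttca

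Spp1: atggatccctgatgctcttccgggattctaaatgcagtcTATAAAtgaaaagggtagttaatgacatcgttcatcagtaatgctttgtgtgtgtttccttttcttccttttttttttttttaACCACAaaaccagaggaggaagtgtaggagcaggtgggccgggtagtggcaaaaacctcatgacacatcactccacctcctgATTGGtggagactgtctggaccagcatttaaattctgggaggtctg

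Beyond the 10, a further 64 genes of bone matrix and mineralization were listed by role, of which 43 were tested and 21 were too low. In KO against WT, Osteo, 7 were called higher and 1 lower (4.94% and 4.15% of all genes), and in Adipo 17 and 9 (16.7% and 16.5%). Without replicate 2 of WT Adipo these counts became 16 and 5 (11.5% and 10.8% of all genes), and 22 and 12 (24.4% and 26.8%). With only the libraries compared in the fit they were 20 and 3 (13% and 13.5% of all genes), and 12 and 1 (7.87% and 5.11%), and between media in WT 2 and 3 (1.38% and 2.42%). In KO against WT, Adipo, equal FPKM sums gave 20 higher and 5 lower (25.3% and 6.96% of all genes). The osteogenic count of 8 also fell to 5, 5 and 4 without replicate 2 of WT Osteo, replicate 1 of KO Osteo or replicate 3 of KO Osteo, and to 4 with equal FPKM sums, as the share of all genes called fell from 9.09% to 4.21%, 4.19%, 4.08% and 4.08%. Without a KO Osteo library 42 genes were tested, since Nt5e, 1 of the 7 called higher, met the minimum through the KO Osteo libraries alone and so had to be higher there. The interaction was called for 12 genes upward and 7 downward (10.9% and 9.58% of all genes), or 16 and 14 without replicate 2 of WT Adipo (19.8% and 22.5%). Adipogenic against osteogenic medium gave 14 higher and 10 lower in WT (10.5% and 12.3% of all genes) and the same numbers in KO (13.9% and 14.0%). In WT the total of 24 fell to 15, 14, 14 and 13 without replicate 1 or 2 of WT Osteo or replicate 1 or 3 of WT Adipo, as the share of all genes called fell from 22.8% to 11.5%, 11.1%, 11% and 10.7%. Medians over the 43 were 0.12, 0.18, -0.02, 0.05 and 0.07 for the 5 comparisons in that order.

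The phosphoproteins Dmp1, Dspp and Mepe, relatives of Spp1 and Ibsp that mark late osteoblasts, odontoblasts and osteocytes, were too low to test, with Dmp1 at most at 0.0596 FPKM and the others at 0 in every library. Among Gla proteins and their carboxylation, 4 of 5 were tested and 2 were called higher in KO Adipo (16.7% of all genes). Mgp, which inhibits calcification, was at 13.8, 24.3 and 11.5 FPKM in WT Adipo and 89.9, 93.2 and 103 in KO Adipo, with no overlap and a difference of 2.52 on the log2 scale (standard error 0.217, limma adjusted p = 3.41e-05). In WT it was lower in adipogenic than in osteogenic medium (-1.79, limma adjusted p = 0.000800), and in KO higher (0.95, limma adjusted p = 0.00900). Gas6, named after its values were seen, accounts for the other call (limma adjusted p = 0.0215), with 109, 436 and 108 FPKM in WT Adipo and 424, 532 and 539 in KO Adipo, so that replicate 2 of WT Adipo lay among the KO libraries.

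Small leucine-rich proteoglycans, the family of Omd, had 6 of 12 genes tested. In KO against WT, Adipo, 5 were called higher and 1 lower (16.7% and 16.5% of all genes), with the same counts without replicate 2 of WT Adipo (24.4% and 26.8%), and the median was 1.00. Aspn rose from a mean of 0.781 to 5.00 FPKM (log2 fold change 1.77, limma adjusted p = 7.05e-05), Ogn from 9.05 to 22.5 (1.27, limma adjusted p = 0.00151) and Prelp from 2.83 to 7.54 (1.17, limma adjusted p = 0.000165). In osteogenic medium Bgn, which encodes biglycan, was the 1 gene called with all libraries (3 without replicate 2 of WT Adipo), at 284 against 220 FPKM (0.36, limma adjusted p = 0.000659, or 0.0593 with equal FPKM sums). Of all genes 4.94% were called higher there and 4.15% lower, and 11.5% and 10.8% without that library. Between media Fmod rose in WT and KO (0.74 and 1.65, limma adjusted p = 0.00361 and 1.46e-05), Prelp fell in WT by 0.79 and Dcn rose there by 0.63 (limma adjusted p = 0.00368 and 0.0136), and in KO Ogn and Aspn rose by 1.38 and 1.14 (limma adjusted p = 0.00107 and 0.00101). Of these the Dcn call was lost in 4 of 12 fits without a library (limma adjusted p up to 0.0545), among them replicates 1 and 3 of WT Adipo. With only the libraries compared, Fmod and Dcn in WT were not called (limma adjusted p = 0.0610 and 0.0949).

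The SPARC family had 3 of 6 genes tested. Smoc2, a secreted calcium-binding relative of Sparc, was at 15.7 FPKM in KO Adipo against 7.88 in WT Adipo (0.92, limma adjusted p = 1.28e-05), and higher in adipogenic medium in KO (1.05, limma adjusted p = 5.29e-06). Fstl1 was lower in KO Adipo (-0.61, limma adjusted p = 0.0103) and higher in adipogenic medium in WT (0.78, limma adjusted p = 0.00639), both lost with only the libraries compared (limma adjusted p = 0.0872 and 0.0788). None of the 3 was called in KO against WT, Osteo, with all libraries, while without replicate 2 of WT Adipo 1 was higher and 1 lower (11.5% and 10.8% of all genes).

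Among 8 genes of adhesion matrix related to periostin, all tested, 2 were called higher in KO Osteo (4.94% of all genes) and 3 higher and 2 lower in KO Adipo (16.7% and 16.5%). Thbs1, which encodes thrombospondin-1, was higher in KO in both media, at 804 against 483 FPKM in Osteo (0.73, limma adjusted p = 0.00252) and 704 against 499 in Adipo (0.49, limma adjusted p = 0.00666). Fn1, for fibronectin, was higher in KO Osteo (0.37, limma adjusted p = 0.0120). The matricellular genes Ccn1 and Ccn2 were higher in KO Adipo (1.06 and 0.81, limma adjusted p = 0.000337 and 0.000258), and rose between media in KO (0.64 and 0.41, limma adjusted p = 0.00563 and 0.0119), where Fn1 fell by 0.34 (limma adjusted p = 0.00730). In WT, Tgfbi, Tnc and Thbs2 were higher in adipogenic medium (1.18, 0.69 and 0.34, limma adjusted p = 0.0399, 0.0125 and 0.0113). Calls lost without a library were those of Fn1 in KO Osteo (3 of 12 fits, limma adjusted p up to 0.0597), Tgfbi in WT (10 of 12, up to 0.143) and Tnc in WT (replicate 3 of WT Adipo, 0.0509). Equal FPKM sums lost the calls of Fn1 in KO Osteo and between media in KO (limma adjusted p = 0.17 and 0.165), of Thbs2 in WT (0.21, limma adjusted p = 0.0673) and of Ccn2 between media in KO (limma adjusted p = 0.0522). Fits of only the libraries compared lost Thbs1 in KO Adipo (limma adjusted p = 0.0735) and Tgfbi, Tnc and Thbs2 in WT (limma adjusted p = 0.145, 0.0972 and 0.0939).

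Type I collagen is the scaffold itself. Col1a2 was called higher in KO Osteo, at 311 against 255 FPKM (0.28, limma adjusted p = 0.0242), which was lost in 4 of 12 fits without a library (limma adjusted p up to 0.105) and with equal FPKM sums (limma adjusted p = 0.201). Neither collagen gene was called in KO against WT, Adipo. Col1a1 was higher in adipogenic medium in WT and KO (0.53 and 0.38, limma adjusted p = 0.00857 and 0.0243), the latter lost in 4 of 12 fits without a library (limma adjusted p up to 0.0958), and Col1a2 in WT (0.32, limma adjusted p = 0.00880, or 0.19 and 0.219 with equal FPKM sums). Both calls in WT were lost with only the libraries compared (limma adjusted p = 0.0764 for Col1a1 and 0.0721 for Col1a2).

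Phosphate and pyrophosphate handling, the pathway in which Alpl acts, had 7 of 12 genes tested. In KO Osteo 3 were called higher and 1 lower when replicate 2 of WT Adipo was left out (11.5% and 10.8% of all genes). With all libraries 2 were higher there (4.94%), the phosphate transporter Slc20a2 at 15.9 against 10.0 FPKM (0.62, limma adjusted p = 0.000164) and the ectonucleotidase Nt5e at 1.37 against 0.603 (0.57, limma adjusted p = 0.0137, or 0.0618 without replicate 2 of WT Osteo). Smpd3, a sphingomyelinase needed for normal bone mineral, was at 0.419, 1.80 and 0.401 FPKM in WT Adipo and 4.42, 4.79 and 4.80 in KO Adipo (1.68, limma adjusted p = 0.000435). Slc20a1 was lower in KO Adipo (-0.45, limma adjusted p = 0.00696), as was Slc20a2 by a small step (-0.18, limma adjusted p = 0.0322), which came to -0.01 (limma adjusted p = 0.972) with equal FPKM sums and was lost in 4 of 12 fits without a library (limma adjusted p up to 0.114). Ank and Enpp1, which supply pyrophosphate, were lower in adipogenic medium in WT (-1.37 and -0.94, limma adjusted p = 0.00806 and 0.00630) and in KO (-1.06 and -0.83, limma adjusted p = 0.0154 and 0.00609), opposite to Alpl. The Ank call in KO was lost without replicate 1 of KO Adipo (limma adjusted p = 0.0573) or replicate 3 of KO Osteo (0.0542). Smpd3 rose between media in KO (1.56, limma adjusted p = 0.000729) and Slc20a1 in WT (0.38, limma adjusted p = 0.0235, lost in 5 of 12 fits without a library, up to 0.0895). With only the libraries compared, Slc20a1 and Slc20a2 in KO Adipo were not called (limma adjusted p = 0.0707 and 0.135), nor were Ank, Enpp1 and Slc20a1 between media in WT (limma adjusted p = 0.0776, 0.0576 and 0.11).

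Of 8 osteoblast and osteocyte surface or secreted proteins, 6 were tested, and 1 was called lower in KO Osteo (4.15% of all genes), or 3 higher and 2 lower without replicate 2 of WT Adipo (11.5% and 10.8%). Tnn, for tenascin-W, was at 35.0, 29.1 and 28.6 FPKM in WT Osteo and 13.4, 12.8 and 15.5 in KO Osteo, with no overlap (-1.10, standard error 0.0865, limma adjusted p = 8.80e-05). In adipogenic medium it rose to a mean of 63.3 in WT and 71.6 in KO (1.02 and 2.29, limma adjusted p = 0.000137 and 3.02e-07). Pdpn, for podoplanin of early osteocytes, also made by macrophages, was at 65.7, 33.9 and 71.8 FPKM in WT Adipo and 13.7, 9.66 and 12.7 in KO Adipo (-2.10, limma adjusted p = 0.000162). Between media in KO it fell by 0.73 (limma adjusted p = 0.0420), a call lost in 9 of 12 fits without a library (limma adjusted p up to 0.138). Kazald1 and the parathyroid hormone receptor gene Pth1r were higher in KO Adipo (0.82 and 0.61, limma adjusted p = 0.000845 and 0.0126), and Kazald1 rose between media in KO (0.82, limma adjusted p = 0.000942). The Pth1r call was lost without replicate 2 or 3 of KO Adipo (limma adjusted p = 0.0510 and 0.0513) and with only the libraries compared (limma adjusted p = 0.0818). Sost, the osteocyte gene, was at 0 in all libraries.

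Receptors of RGD matrix proteins had 7 of 8 genes tested. In KO Osteo 2 were called higher and 1 lower when replicate 2 of WT Adipo was left out (11.5% and 10.8% of all genes). With all libraries Itgb1 was called higher in KO Osteo (0.22, limma adjusted p = 0.0107, or 0.304 with equal FPKM sums, and 0.0587 without replicate 3 of KO Osteo). In KO Adipo, Itgav and Itga5 were higher (0.39 and 0.53, limma adjusted p = 0.00112 and 0.0185) and Itgb3, the partner of Itgav in the osteopontin receptor, was lower (-0.57, limma adjusted p = 0.0210). The Itga5 call was lost without replicate 1 of KO Adipo (limma adjusted p = 0.0530) and that of Itgb3 without replicate 1 or 2 of KO Adipo (limma adjusted p up to 0.0614) or with equal FPKM sums (-0.45, limma adjusted p = 0.112). Between media Itgb5 fell in WT by 0.71 and in KO by 0.47 (limma adjusted p = 0.00516 and 0.0212), Itgb3 fell in KO by 1.25 and Itga5 rose there by 0.88 (limma adjusted p = 0.000382 and 0.00156), and in WT Itga9 rose by 0.83 and Itgav fell by 0.23 (limma adjusted p = 0.0255 and 0.0266). Calls lost without a library were those of Itgb5 in KO, Itga9 and Itgav (in 4, 5 and 4 of 12 fits, limma adjusted p up to 0.0715, 0.0962 and 0.0957), with that of Itgb5 also lost with equal FPKM sums (limma adjusted p = 0.144). With only the libraries compared, Itga5 and Itgb3 in KO Adipo (limma adjusted p = 0.114 and 0.11) and Itgb5, Itga9 and Itgav in WT (limma adjusted p = 0.0520, 0.139 and 0.0847) were not called.

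**Figure D4:**
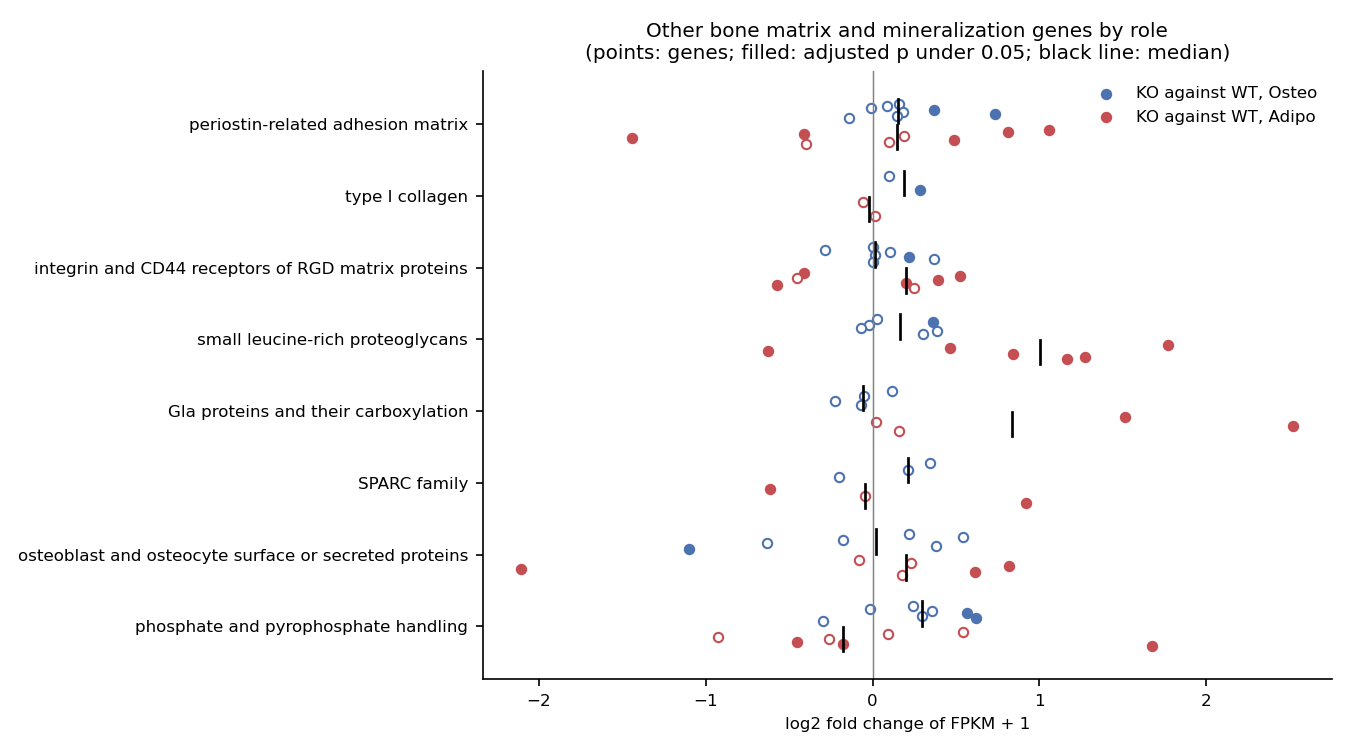
Log2 fold changes of FPKM + 1, KO against WT, of the 43 further matrix and mineralization genes tested, by role, with filled points for an adjusted p under 0.05 in limma and a black line for the median of a role. In adipogenic medium small leucine-rich proteoglycans had a median of 1.00 and Gla proteins one of 0.84, with Mgp farthest right at 2.52, while Pdpn lay farthest left at -2.10.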

How the data were processed

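RNA-seq of 12 libraries was used, in 4 groups of 3 by genotype and medium as labelled. Per library the authors deposited FPKM in a single shared table, without counts. The submitters' notes name Bowtie 0.12.2 and mm9, whereas the paper's software list names HISAT2 and Ballgown, so the aligner is unsettled. Annotation, use of strand and filters are not stated. No raw reads were used.

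Identifiers were matched to GENCODE M21 (GRCm38), and 99.8% had a symbol. The value of 1 fragment was recovered for each library from FPKM and exonic length. Of values under 30 fragments, 98.2% to 98.4% were whole to within 0.02 fragment, against 4% by chance, and 17496241 to 21099077 fragments fell on genes. The library median ratios to the geometric mean library were all 1.00, so the deposited values had already been scaled that way.

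Tests used limma 3.58.1 in R 4.3.3 on log2(FPKM + 1) with a mean for each group, a variance trend, and adjusted p by Benjamini and Hochberg over 12871 genes with at least 1 FPKM in at least 3 libraries, called at 0.05. The 5 contrasts were KO against WT in each medium, their difference, and adipogenic against osteogenic medium in each genotype. Exact permutation tests used scipy 1.17.1, and other steps Python 3.11.15, numpy 2.4.6, pandas 2.3.3 and matplotlib 3.10.9. Alternatives were a pseudocount of 0.1, no filter, equal FPKM sums (TPM), median-ratio scaling, fits without trend, fits of the 2 groups alone, replicate numbers as blocks, voom on recovered fragments, and leaving out each library. Leaving out replicate 2 of WT Adipo and replicate 1 of KO Adipo together, and rescaling for Phex, were added after seeing the data.

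The members, the role lists and the marker lists (macrophage, osteoclast, endothelial, adipocyte, chondrocyte, smooth muscle, mesenchymal stromal, osteoblast) were chosen with earlier results of these data known. All 10 members are named, and for each further role and pairwise contrast up to 3 called genes with the largest change whose groups do not overlap. For members other than Ibsp whose group means span at least 1, the 3 nearest genes are named. Fkbp5 and Gas6 were named after their values were seen. The procedure was tested on simulated data. A first bar on the number of planted changes recovered was not met, and the criterion was then changed, after seeing that result, to recovery of larger changes at well-measured genes with few false calls, which was met. Many planted changes that were small or in low genes were missed.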

Additional observations from a re-analysis of the deposited data

Results flagged for a closer look

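The genotype effect differed between the media, by the limma interaction term, for 6 of the 9 genes tested, 5 upward and 1 downward (10.9% and 9.58% of all genes). The difference on the log2 scale, adipogenic minus osteogenic, was 1.54 for Omd, 1.47 for Ibsp, 1.01 for Tmem119, 0.99 for Bglap2, 0.68 for Postn and -0.31 for Sparc. For Omd, Ibsp and Tmem119 the effect was called in adipogenic medium and not in osteogenic medium. Postn was called in both, lower in KO Osteo and higher in KO Adipo, the former lost in 7 of 12 fits without a library and with equal FPKM sums (limma adjusted p = 0.0622). Bglap2 was called in neither medium with all libraries, but lower in KO Osteo with only the libraries compared (limma adjusted p = 0.0348), and higher in KO Adipo with equal FPKM sums or without replicate 2 of WT Adipo (limma adjusted p = 0.0304 and 0.0278). Sparc was called higher in KO Osteo and not in KO Adipo. With equal FPKM sums it was called in both (0.35 in Adipo, limma adjusted p = 0.0119) and its interaction was not (-0.11, limma adjusted p = 0.524). The interaction, with a limma adjusted p of 0.0491 over all libraries, was lost in 10 of 12 fits without a library. Without replicate 2 of WT Adipo the interactions of Alpl (-0.69) and Bglap (0.56) were called as well. Fkbp5 and the macrophage list also differed between these groups, and their part in these differences was not tested.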

How the results depend on the processing

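Of 916 values recomputed for the members, 849 kept their direction and side of the threshold, 42 lost a call, 17 gained one and 8 turned direction. Those 8 values were not called. They were Bglap in the interaction under voom (-0.0346), Spp1 in the interaction under rescaling to the same sum of FPKM (0.0036) and Tmem119 between media in WT under that rescaling (-0.0528), without replicate 2 of WT Osteo (-0.0018) and without replicate 1 of WT Adipo (-0.0580). Omd between media in WT turned without replicate 3 of WT Osteo (-0.06), without replicate 2 of WT Adipo (-0.16) and without replicate 1 of KO Adipo as well (-0.16). In the same comparison Omd was 0.215 without replicate 1 of WT Adipo, and Tmem119 0.249 without replicate 2, against 0.06 and 0.07 with all. The cause was not tested.

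Members called in KO against WT, Osteo, went from 3 to 5 with both adipogenic libraries that stood apart left out, an alternative chosen after seeing the data, in which the share of all genes called went from 9.09% to 28.3%. Leaving out each library gave 2 to 3 there (4.08% to 22.3% of all genes), 5 to 8 in Adipo (21.4% to 51.2%), 4 to 8 for the interaction (13.8% to 42.3%), 4 to 6 between media in WT (10.7% to 48.0%) and 8 to 9 in KO (19.4% to 42.6%). Bglap is not tested when a KO Adipo library is left out. With the replicate number as a block, 2, 6, 6, 5 and 9 members were called (5.78%, 30.2%, 16.9%, 15.1% and 22.4% of all genes). Among the further genes, the block lost the calls of Itgav, Itga9, Tgfbi and Slc20a1 between media in WT (limma adjusted p = 0.0502, 0.0505, 0.0557 and 0.0566). That of Slc20a2 in KO Adipo was lost as well (limma adjusted p = 0.0678).

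Over all genes, 1170, 4276, 2630, 2935 and 3592 were called in the 5 contrasts. Without replicate 2 of WT Adipo these were 2853, 6559, 5427, 6147 and 5463. Rescaling to the same sum gave 526 in KO against WT, Osteo, and 3264 higher against 898 lower in Adipo, in place of 2153 and 2123. With only the libraries compared, 3418 were called in Osteo, 1671 in Adipo and 490 between media in WT. The block gave 744 in Osteo and 1943 between media in WT. Depth limits Phex most, with at most 6 fragments in a library, then Bglap with 20, Bglap2 with 69 and Ibsp with 126.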
